A study of Mus musculus with 8 samples.

Results

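The genes described here sense lipopolysaccharide (LPS) or restrain the response to it. They were chosen by name, with earlier results of these data known, as 10 of the 52636 genes counted. These were Lbp, Cd14, Ly96, Tlr4 and Tlr2 on the receptor side, Myd88 as the adaptor, and Irak3, Nfkbia, Tnfaip3 and Il1rn as feedback genes. All 10 had enough reads to be tested. Lung RNA from male wild-type C57BL/6 mice gave 8 sequencing libraries, with 4 groups of 2. PBS alone was given to control mice. In the COPD mice model, porcine pancreatic elastase (PPE; elastase in the labels) was given into the trachea and LPS followed by the same route. Animals ate the control diet or chow holding 2% TJ-41, a Japanese herbal medicine that the labels write as TJ41 or TJ4. Mice started the diets at 8 weeks of age, had PPE or PBS at 10 weeks, and had LPS or PBS from 12 weeks. The study describes the LPS schedule both as daily and as every few days, and does not state the day or hour at which the lungs for RNA were taken. Nothing states whether the 2 libraries of a group came from separate mice, so p-values measure the spread between these libraries, which may be technical.

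LPS in the airway is bound by LBP, passed to CD14 and presented to the receptor complex of TLR4 and MD-2, the protein that Ly96 encodes. The adaptor MYD88 carries the signal to kinases that release NF-kB into the nucleus. NF-kB then induces cytokine genes together with its own inhibitors, so that repeated LPS meets a pathway already under restraint.

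Libraries held 18767295 to 20888042 counts on genes, and levels are given as CPM, the counts scaled to a common library size with the TMM factors of edgeR. Replicate 2 of the control-diet COPD model stood apart. The SD over genes of the log2 difference between the replicates was 0.798 in that group and 0.394 to 0.469 in the others. Genes of the circadian clock also separated the treatments. Their summed level was 693 to 935 CPM in the 4 control libraries and 1827 to 1888 CPM in the 4 libraries of the model. Of 15 clock genes, Dbp, Hlf, Per3, Per2, Tef, Nr1d2 and Nr1d1 rose and Arntl, Npas2 and Nfil3 fell in the model over both diets, with log2 fold changes up to 3.89 for Dbp and down to -2.93 for Arntl and adjusted p of at most 0.0078, that of Nfil3 (edgeR quasi-likelihood test, Benjamini-Hochberg). A difference in the hour of sampling and the treatment cannot be told apart here. Markers of alveolar type 2 cells were high in every library, with a summed 18185 to 37138 CPM over 6 genes, as the label of lung requires. Lung tissue mixes many cell types, and fewer cells of a type and less RNA per cell cannot be told apart in it.

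The promoters of 3 of these genes are shown because they hold matches to DNA motifs of NF-kB, the factor that this pathway activates. Each is the 250 bases before a transcription start in RefSeq (mouse build GRCm38.p6), written 5′ to 3′ on the minus strand, which carries all 3 genes, with matches to either of 2 motifs on either strand in capitals. The motifs are GGANNTTCC and the 10-base kappa B consensus. The Nfkbia window lies at chr12:55492648-55492897, the Tnfaip3 window at chr10:19015411-19015660 and the Tlr2 window at chr3:83841609-83841858.
Nfkbia: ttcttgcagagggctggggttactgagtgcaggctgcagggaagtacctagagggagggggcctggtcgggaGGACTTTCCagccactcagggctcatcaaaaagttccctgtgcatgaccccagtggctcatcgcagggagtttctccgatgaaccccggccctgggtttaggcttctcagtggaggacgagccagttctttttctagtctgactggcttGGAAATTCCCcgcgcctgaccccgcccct
Tnfaip3: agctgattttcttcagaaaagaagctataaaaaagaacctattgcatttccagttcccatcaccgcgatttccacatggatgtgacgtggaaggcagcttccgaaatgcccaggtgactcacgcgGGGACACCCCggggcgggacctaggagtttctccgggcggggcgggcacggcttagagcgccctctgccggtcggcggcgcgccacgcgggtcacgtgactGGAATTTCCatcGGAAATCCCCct
Tlr2: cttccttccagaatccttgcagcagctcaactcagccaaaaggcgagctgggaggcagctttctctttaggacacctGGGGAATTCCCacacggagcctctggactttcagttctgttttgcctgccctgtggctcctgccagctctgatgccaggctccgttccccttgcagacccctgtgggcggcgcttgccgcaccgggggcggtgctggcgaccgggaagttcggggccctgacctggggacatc
Nfkbia held 2 matches to GGANNTTCC, 1 of them overlapping its match to the consensus. Tnfaip3 held 1 match to GGANNTTCC and 2 to the consensus, and Tlr2 held 2 overlapping matches to the consensus. Among 32851 promoter windows of the same length, 3.59% held GGANNTTCC and 7.25% held the consensus. Windows were found for 6 of the 10 genes, 10 windows in all, and the other windows, of Il1rn, Irak3, Myd88 and a second start of Tnfaip3, held neither motif. The promoters of Tlr4, Cd14, Ly96 and Lbp were not analysed here. The motifs were kept from 8 patterns after their matches were seen, so the counts describe these windows only.

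No gene of the group passed the test in the COPD mice model. Over both diets, 0 of 10 genes were DEGs (false discovery rate under 0.05 and log2 fold change beyond 1), where 0.443% of the 20546 genes tested were, and DESeq2 also called 0 of the 10. Cd14, Lbp and Tnfaip3 were higher and Il1rn was lower at an unadjusted p under 0.05, 4 of 10 genes beside 10.4% of all genes. Adjusted p-values ran from 0.347 to 0.889 over the 10 genes (edgeR quasi-likelihood test, Benjamini-Hochberg). Without replicate 1 of the control-diet COPD model, Lbp, Cd14, Tlr4, Nfkbia, Tnfaip3 and Il1rn had an adjusted p under 0.05 by the same test, 6 of 10 genes beside 20.1% of all genes, although none of their log2 fold changes was beyond 1 in size. On the control diet that fit rests on replicate 2, the library that stood apart. With all 8 libraries, the 95% intervals of all 10 log2 fold changes over both diets lay between -1 and 1. The median log2 fold change of the group was 0.23, beside -0.0017 over all genes tested.

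**Figure D1:**
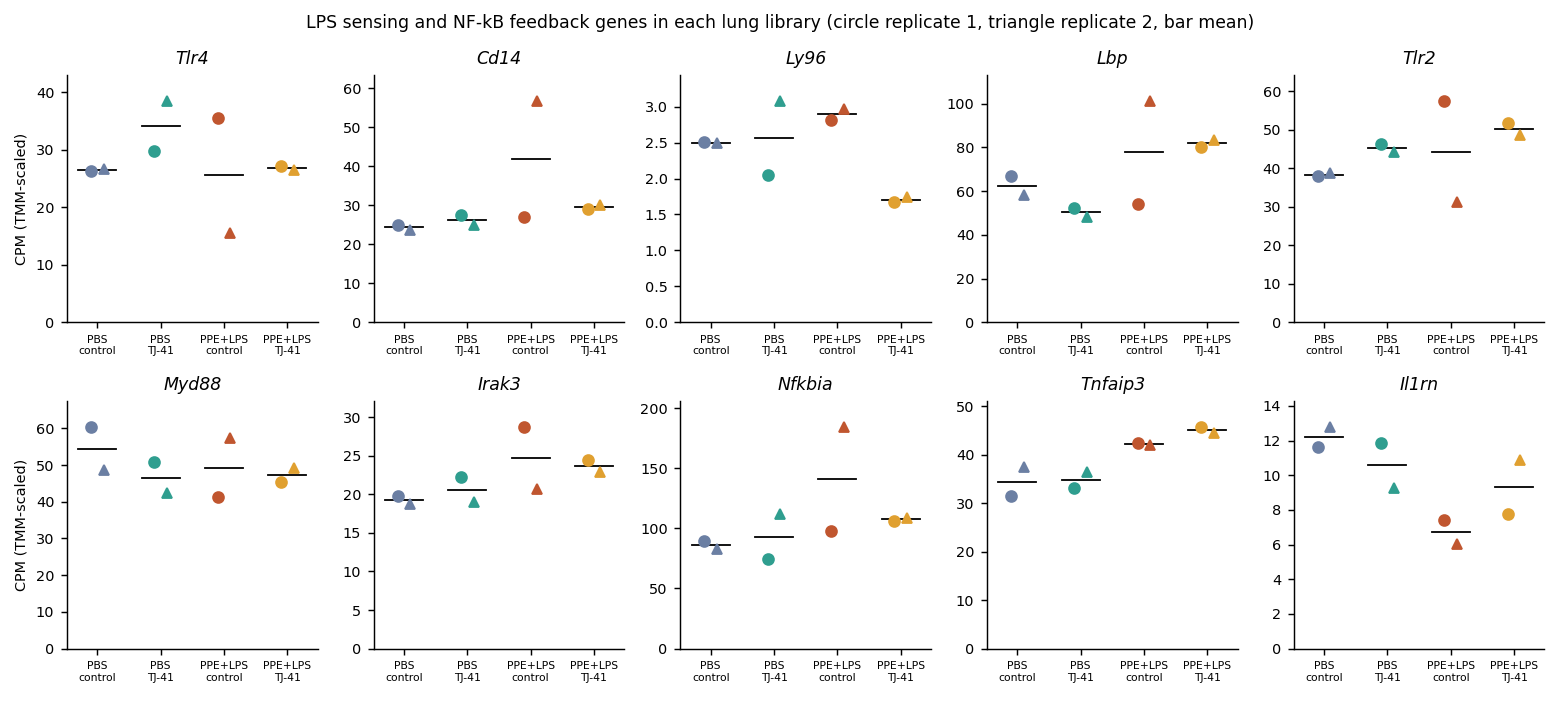
CPM (y axis, from 0) of each gene in the 8 lung libraries by group (x axis), with circles for replicate 1, triangles for replicate 2 and bars for the group mean. In Tnfaip3 all 4 libraries of the COPD mice model lie above all 4 control libraries, while in Cd14 and Nfkbia a single triangle lies far above the rest.

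Lbp encodes the secreted protein that extracts LPS monomers for CD14. Its gene (ENSMUSG00000016024) lies on chromosome 2 from 158306493 to 158332852 of GRCm38. Lbp had 66.7 and 58.0 CPM in control mice and 54.2 and 101 CPM in the COPD mice model when fed the control diet. With TJ-41 in the diet it had 52.2 and 48.2 CPM in control mice and 80.0 and 83.6 CPM in the model. Both model libraries lay above both control libraries on the TJ-41 diet, and on the control diet the groups overlapped. Over both diets the log2 fold change was 0.51 (SE 0.18, adjusted p = 0.363, edgeR quasi-likelihood test, Benjamini-Hochberg). It was 0.32 (SE 0.26) on the control diet, and -0.20 there without replicate 2 of the model. It was 0.70 (SE 0.26) on the TJ-41 diet (adjusted p = 0.688, edgeR quasi-likelihood test, Benjamini-Hochberg). With only the 2 groups of that diet in the fit, it was 0.70 (SE 0.10) with an adjusted p of 0.0105 (edgeR quasi-likelihood test). This did not make it a DEG because the log2 fold change was under 1. In that fit 1 of the 10 genes and 3.61% of all genes had an adjusted p under 0.05. With all 8 libraries in the fit, 0.0779% of all genes did. Over the alternatives with every library kept, the adjusted p of Lbp ran from 0.0105 to 0.847. Liver also makes LBP, and replicate 2 of control-diet control mice held 5 liver markers at a summed 37.3 CPM, against at most 1.1 CPM in the other libraries, where 2 to 5 of the markers were at 0. Lbp was lower in that library than in the other replicate, and the part of liver RNA in its level was not tested.

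Cd14 encodes the surface protein that hands LPS to the receptor (ENSMUSG00000051439, chromosome 18). Cd14 had 25.03 and 23.8 CPM in control mice and 27.0 and 56.7 CPM in the COPD mice model when fed the control diet. In mice fed TJ-41 it had 27.4 and 24.9 CPM in control mice and 29.1 and 29.9 CPM in the model. The model libraries lay above the control libraries on each diet, but 7 of the 8 libraries fell between 23.8 and 29.9 CPM and replicate 2 of the control-diet COPD model stood alone. Its log2 fold change over both diets was 0.48 (SE 0.21, adjusted p = 0.478, edgeR quasi-likelihood test, Benjamini-Hochberg), and 0.17 without that library. Alveolar macrophages carry CD14, and the summed level of 10 of their markers was 846 to 1027 CPM in control mice and 1211.5 to 1867 CPM in the model, highest in the same library. Chil3 alone gave 371 to 475 CPM of it in control mice and 624 to 1385 CPM in the model. Without Chil3 the other 9 summed to 464 to 580 CPM and 482 to 645 CPM, with 482 CPM in that library. There Marco and Fabp4 were at their highest and Siglecf, Ear2, Krt79, Itgax and Mrc1 were at their lowest. The 10 markers of monocytes and interstitial macrophages summed to 418 to 559 CPM in control mice and 444 to 532 CPM in the model. In the library with the most Cd14, C1qa, C1qb and C1qc were at their highest and Ccr2, Cx3cr1, Csf1r and Adgre1 at their lowest. None of these markers was at 0 in any library, and the part of macrophage or monocyte number in the level of Cd14 was not tested.

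Ly96 encodes MD-2, the subunit of the TLR4 complex that holds LPS (ENSMUSG00000025779, chromosome 1 from 16688051 to 16709611). It was counted with 32 to 58 reads per library. Ly96 had 2.51 and 2.49 CPM in control mice and 2.81 and 2.97 CPM in the COPD mice model when fed the control diet. When TJ-41 was fed it had 2.05 and 3.08 CPM in control mice and 1.67 and 1.74 CPM in the model. The model libraries lay above the control libraries on the control diet and below them on the TJ-41 diet. The log2 fold changes were 0.21 (SE 0.31) and -0.59 (SE 0.32). Their difference of -0.80 (SE 0.45) did not pass the test (unadjusted p = 0.109, adjusted p = 0.999, edgeR quasi-likelihood test, Benjamini-Hochberg). When each library was left out in turn, the value on the TJ-41 diet ran from -0.84 to -0.27. The difference then ran from -1.05 to -0.47.

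Tlr4 encodes the signalling receptor for LPS itself (ENSMUSG00000039005, chromosome 4 from 66827584 to 66930284). Tlr4 had 26.3 and 26.8 CPM in control mice and 35.6 and 15.5 CPM in the COPD mice model when fed the control diet. On the TJ-41 diet it had 29.7 and 38.5 CPM in control mice and 27.3 and 26.5 CPM in the model. On the control diet the model held both the highest and the lowest of the 4 values, and on the TJ-41 diet it lay below control mice. The log2 fold change over both diets was -0.20 (SE 0.23, adjusted p = 0.761, edgeR quasi-likelihood test, Benjamini-Hochberg). Without replicate 2 of the control-diet COPD model it was 0.048, and without replicate 1 it was -0.56.

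Tlr2 encodes the receptor for bacterial lipoproteins, which shares MYD88 with TLR4 (ENSMUSG00000027995, chromosome 3 from 83836272 to 83841767). Tlr2 had 37.9 and 38.7 CPM in control mice and 57.4 and 31.1 CPM in the COPD mice model when fed the control diet. With TJ-41 in the diet it had 46.3 and 44.3 CPM in control mice and 51.8 and 48.6 CPM in the model. As in Tlr4, replicate 1 of the control-diet COPD model was high and replicate 2 low. Over both diets the log2 fold change was 0.18 (SE 0.18, adjusted p = 0.727, edgeR quasi-likelihood test, Benjamini-Hochberg), and -0.076 without replicate 1 of the control-diet COPD model.

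Myd88 encodes the adaptor of the TLR and IL-1 receptors (ENSMUSG00000032508, chromosome 9 from 119335934 to 119341411). Myd88 had 60.3 and 48.6 CPM in control mice and 41.2 and 57.4 CPM in the COPD mice model when fed the control diet. In mice fed TJ-41 it had 51.0 and 42.3 CPM in control mice and 45.3 and 49.3 CPM in the model. The groups overlapped on both diets, and the log2 fold change over both diets was -0.061 (SE 0.15, 95% interval -0.39 to 0.27). Of its exon bases, 11.3% are shared with Acaa1a on the opposite strand, and reads there cannot be assigned without the strand setting, which is not given in the sources used here.

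Irak3 encodes a kinase-like protein that holds back signalling from MYD88 (ENSMUSG00000020227, chromosome 10 from 120141648 to 120202130). Irak3 had 19.8 and 18.7 CPM in control mice and 28.7 and 20.6 CPM in the COPD mice model when fed the control diet. When TJ-41 was fed it had 22.3 and 19.01 CPM in control mice and 24.5 and 22.9 CPM in the model. The model libraries lay above the control libraries on each diet, although the lower model library on the control diet did not reach the higher control library on the TJ-41 diet. Its log2 fold change over both diets was 0.28 (SE 0.15, adjusted p = 0.553, edgeR quasi-likelihood test, Benjamini-Hochberg). This was 0.15 without replicate 1 of the control-diet COPD model and 0.39 without replicate 2. Of the exon bases of Irak3, 5.98% are shared with Gm47009 and Tmbim4 on the opposite strand.

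Nfkbia encodes IkB-alpha, which binds NF-kB and keeps it out of the nucleus (ENSMUSG00000021025, chromosome 12 from 55489410 to 55492647). Nfkbia had 89.7 and 83.0 CPM in control mice and 97.7 and 184 CPM in the COPD mice model when fed the control diet. On the TJ-41 diet it had 74.2 and 112 CPM in control mice and 106 and 109 CPM in the model. As in Cd14, replicate 2 of the control-diet COPD model stood far above the other 7 libraries, and on the TJ-41 diet the groups overlapped. The log2 fold change over both diets was 0.46 (SE 0.21, adjusted p = 0.490, edgeR quasi-likelihood test, Benjamini-Hochberg), and 0.20 without that library. The same library had the highest summed level of 8 glucocorticoid response genes, 1853.5 CPM against 492 to 891 CPM in the others, of which Lcn2 gave 889 CPM. Without Lcn2, Saa3 and the clock gene Per1, the other 5 summed to 688 CPM there against 320.3 to 565 CPM. Of these 5, Fkbp5 and Tsc22d3 were at their highest in that library and Sgk1 was at its lowest. That library also had the lowest summed level of 10 neutrophil markers, 74.0 CPM against 154.5 to 371 CPM. The part of these differences in Nfkbia and Cd14 was not tested.

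Tnfaip3 encodes A20, a ubiquitin-editing enzyme that ends NF-kB signalling (ENSMUSG00000019850, chromosome 10 from 19000910 to 19015657). Tnfaip3 had 31.5 and 37.5 CPM in control mice and 42.4 and 42.0 CPM in the COPD mice model when fed the control diet. With TJ-41 in the diet it had 33.2 and 36.5 CPM in control mice and 45.6 and 44.6 CPM in the model. It was the only gene of the 10 whose 4 model libraries all lay above the 4 control libraries, as did 3.35% of all genes tested. None of the 10 lay wholly below, as 3.43% of all genes did, and 6.78% of all genes separated the treatments either way. Over both diets the log2 fold change was 0.33 (SE 0.12, 95% interval 0.073 to 0.59, adjusted p = 0.347, edgeR quasi-likelihood test, Benjamini-Hochberg). It ran from 0.28 to 0.40 when each library was left out in turn, the narrowest such range among Lbp, Cd14, Nfkbia and Tnfaip3.

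Il1rn encodes the IL-1 receptor antagonist, a secreted inhibitor of IL-1 (ENSMUSG00000026981, chromosome 2 from 24336853 to 24351494). Il1rn had 11.7 and 12.8 CPM in control mice and 7.40 and 6.04 CPM in the COPD mice model when fed the control diet. In mice fed TJ-41 it had 11.9 and 9.29 CPM in control mice and 7.76 and 10.9 CPM in the model. The model lay below control mice on the control diet, and the groups overlapped on the TJ-41 diet. Its log2 fold change over both diets was -0.52 (SE 0.18, adjusted p = 0.348, edgeR quasi-likelihood test, Benjamini-Hochberg). It was -0.86 (SE 0.26) on the control diet and -0.18 (SE 0.26) on the TJ-41 diet, and the difference of 0.68 (SE 0.36) between them did not pass the test (unadjusted p = 0.0950, adjusted p = 0.999, edgeR quasi-likelihood test, Benjamini-Hochberg). With a correction for exon length and GC content the value on the TJ-41 diet was 0.039.

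**Figure D2:**
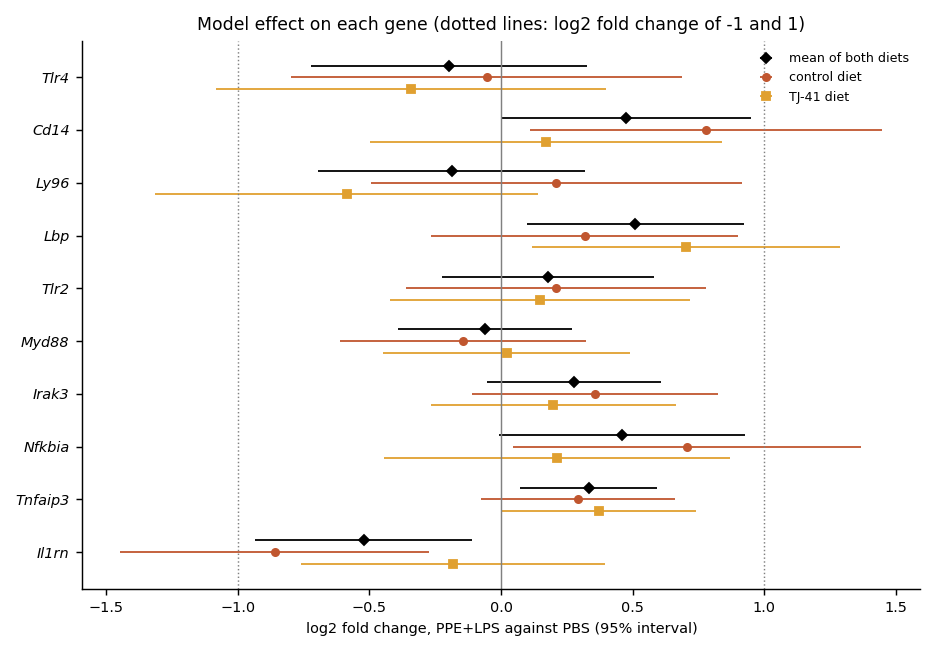
Log2 fold change of the COPD mice model against control mice (x axis) with its 95% interval for each gene (y axis), over both diets (diamonds) and on the control diet (circles) and the TJ-41 diet (squares). All 10 intervals over both diets lie between the dotted lines at -1 and 1.

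On the control diet alone, 0 of 10 genes were DEGs, beside 0.122% of all genes, and Cd14, Nfkbia and Il1rn had an unadjusted p under 0.05, 3 of 10 beside 7.7%. These 3 became DEGs when replicate 1 of the control-diet COPD model was left out, with log2 fold changes of 1.21, 1.09 and -1.02, in a fit in which 1343 genes were DEGs. The libraries of the model and of control mice did not overlap for 6 genes, 5 higher and 1 lower, beside 27.6% of all genes, 13.6% higher and 14.1% lower. On the TJ-41 diet 0 of 10 genes were DEGs, beside 0.0779% of all genes, and Lbp and Tnfaip3 had an unadjusted p under 0.05, 2 of 10 beside 6.56%. There the libraries did not overlap for 7 genes, 5 higher and 2 lower, beside 56.5% of all genes, 28.5% higher and 27.9% lower. With 2 libraries against 2, an exact permutation test of a single gene cannot give a two-sided p under 0.333. Cd14, Irak3 and Tnfaip3 were higher in the model without overlap on each diet, 3 of 10 genes beside 4.67% of all genes, and 0 of 10 were lower on each, beside 5.26%.

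The diets were compared within each treatment. In control mice 0 of 10 genes were DEGs, beside 0% of all genes, and 0 had an unadjusted p under 0.05, beside 1.64% of all genes. The log2 fold changes ran from -0.31 for Lbp to 0.36 for Tlr4. The diets did not overlap for Tlr2 and Tlr4, which were higher on TJ-41, and for Lbp, which was lower, 3 genes beside 38.2% of all genes. In the model 0 of 10 genes were DEGs, beside 0.00487% of all genes. Ly96 was the 1 gene of 10 with an unadjusted p under 0.05, beside 4.1% of all genes, with a log2 fold change of -0.76 on the TJ-41 diet (SE 0.32, unadjusted p = 0.0408, adjusted p = 0.991, edgeR quasi-likelihood test, Benjamini-Hochberg). Il1rn and Tnfaip3 were higher and Ly96 was lower without overlap, 3 genes beside 29% of all genes. Cd14 and Nfkbia had log2 fold changes of -0.50 (SE 0.29) and -0.39 (SE 0.29) on the TJ-41 diet in the model. Without replicate 2 of the control-diet COPD model these were 0.13 and 0.14, and without replicate 1 they were -0.94 and -0.77. Tlr2 and Tlr4 went from -0.20 and -0.41 without replicate 2 to 0.69 and 0.79 without replicate 1. For the difference between the diets in the effect of the model, 0 of 10 genes were DEGs, beside 0% of all genes, and 0 had an unadjusted p under 0.05, beside 3.27%.

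**Figure D3:**
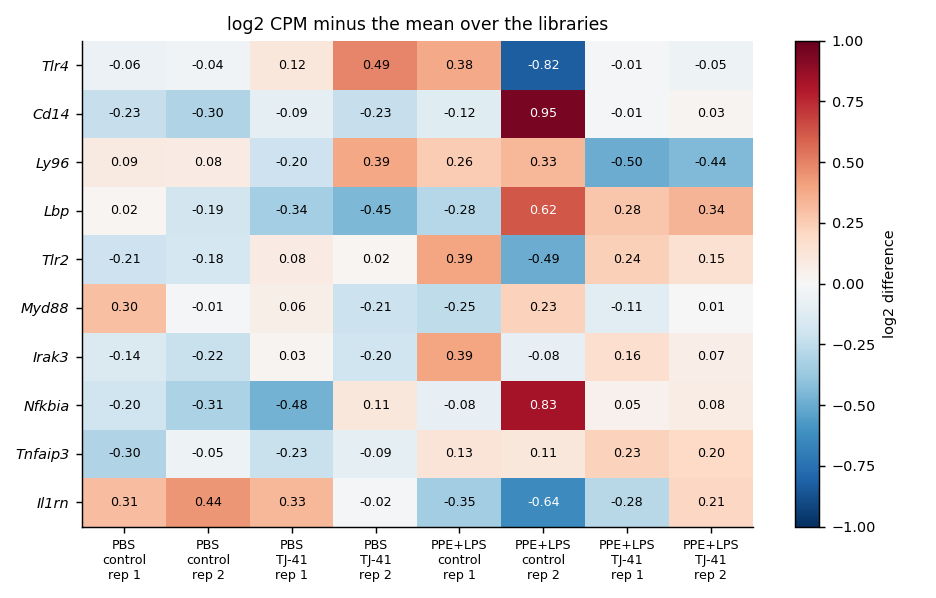
Log2 CPM of each gene (rows) in each library (columns) minus its mean over the 8 libraries, as colour and number. Replicate 2 of the control-diet COPD model ranges from -0.82 for Tlr4 to 0.95 for Cd14.

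Replicate 2 of the control-diet COPD model was the highest library for 3 genes, Cd14, Lbp and Nfkbia, and the lowest for 3, Tlr4, Tlr2 and Il1rn. Among all genes tested it was the highest for 29.2% and the lowest for 28.1%. The median fold between the replicates of this group was 1.60 over the 10 genes, against 1.04 to 1.19 in the other groups, and 1.42 over all genes with a count in every library. The deviation of a gene from its mean over all libraries followed GC content and exon length in several libraries. Across genes, the Spearman correlation with GC content was 0.398 in this library and ran from -0.498 to 0.347 in the others, and that with length was -0.254 and ran from -0.281 to 0.274. Genes are not independent replicates, so these are descriptions.

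Levels were compared between genes per kilobase of exon. Nfkbia had the highest, 66.4 CPM per kb over the 8 libraries (range 46.1 to 114). Myd88 followed with 19.2 (16.0 to 23.4), Cd14 with 17.6 (13.7 to 32.7), Tlr2 with 14.8 (10.3 to 19.1) and Lbp with 14.1 CPM per kb (9.98 to 20.9), and these ranges overlapped. Irak3, Tnfaip3 and Tlr4 formed a lower tier at 6.002, 5.42 and 5.09 CPM per kb, again with overlapping ranges. Ly96 and Il1rn had the lowest levels, 2.36 (1.63 to 3.01) and 1.75 CPM per kb (1.09 to 2.30). Their order depends on the merged exon length, 1021 and 5535 bases, since their mean CPM was 2.41 and 9.71. By CPM per kb the level of Ly96, the LPS-binding subunit, was below that of its partner Tlr4 in 7 of the 8 libraries. The exception was replicate 2 of the control-diet COPD model.

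**Figure D4:**
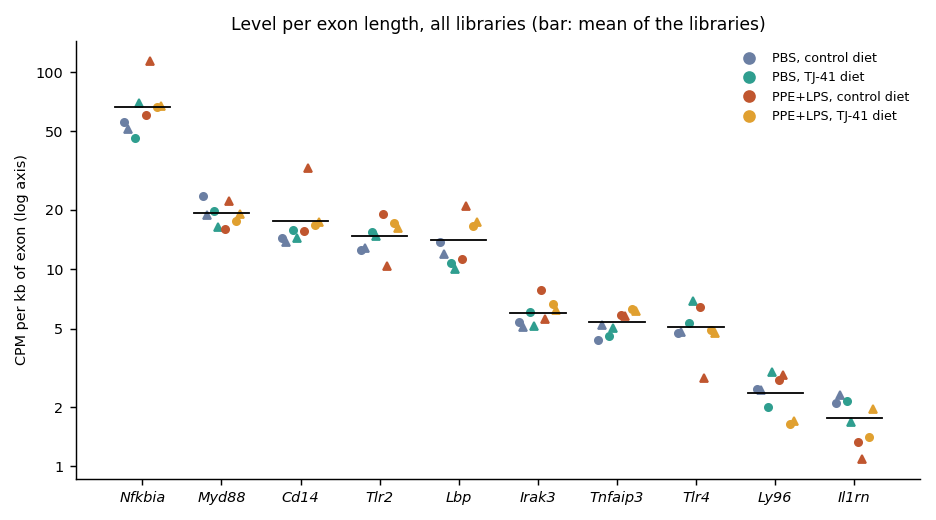
CPM per kilobase of exon (log axis) of each gene in each library, coloured by group, with circles for replicate 1, triangles for replicate 2 and bars for the mean of the 8 libraries. Nfkbia lies above the other genes in every library.

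The rest of the pathway was described with 6 lists of 67 genes, also chosen with earlier results known, of which 66 were tested. Over both diets 0 of the 66 were DEGs in the COPD mice model, where 0.443% of all genes were, and 6 were higher and 3 lower at an unadjusted p under 0.05, 13.6% beside 10.4% of all genes. The 19 adaptors and kinases had a median log2 fold change of -0.090, with 14 lower, and the lowest p was that of Ripk1, a kinase on the path to NF-kB, at -0.19 (SE 0.11). The 5 NF-kB subunits had a median of -0.014, and Rel, the c-Rel subunit, had -0.42 (SE 0.18). The 8 other receptor-side genes had a median of 0.049, and Cd36, a scavenger receptor, had -0.46 (SE 0.17). The 6 genes of the IL-1 axis had a median of -0.12, and Il1a had -0.24 (SE 0.17).

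The 19 other negative regulators had a median log2 fold change of 0.18, with 15 higher, beside 0.23 for the 10 genes above. The lowest p among them was that of Zfp36, which encodes a protein that speeds the decay of cytokine mRNAs. Zfp36 had 122 and 135 CPM in control mice and 214 and 258 CPM in the COPD mice model when fed the control diet, but 124 and 163 against 132 and 154 CPM on the TJ-41 diet. The groups did not overlap on the control diet and overlapped on the TJ-41 diet, and the log2 fold change over both diets was 0.44 (SE 0.14, adjusted p = 0.281, edgeR quasi-likelihood test, Benjamini-Hochberg).

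The 9 LPS-induced cytokine and enzyme genes had a median log2 fold change of 0.27, and 4 were higher and 1 lower at an unadjusted p under 0.05, 5 of 9 beside 10.4% of all genes. The higher ones, named here after their values were seen, were the chemokine genes Cxcl1, Ccl3 and Cxcl2, with log2 fold changes from 1.03 (SE 0.45) for Cxcl2 to 1.79 (SE 0.51) for Cxcl1, and Nos2, the inducible nitric oxide synthase, with 0.66 (SE 0.23). Their adjusted p-values ran from 0.194 to 0.480 (edgeR quasi-likelihood test, Benjamini-Hochberg). Cxcl2 had 5 to 36 counts per library. In the control-diet model Cxcl2 had 0.62 and 1.84 CPM and Cxcl1 had 0.94 and 5.58 CPM, each higher in replicate 2. On the TJ-41 diet Cxcl2 had 0.41 and 0.65 CPM in control mice and 0.57 and 0.46 CPM in the model. There Cxcl1 had 0.67 and 0.81 CPM in control mice and 2.34 and 1.63 CPM in the model. The median of the list was 0.75 on the control diet and -0.030 on the TJ-41 diet. The lowest p was that of Ptgs2, which encodes the inducible cyclooxygenase. Ptgs2 had 22.9 and 31.5 CPM in control mice and 25.1 and 16.5 CPM in the model on the control diet, and 24.7 and 35.6 against 6.30 and 11.5 CPM on the TJ-41 diet. The model lay below control mice on the TJ-41 diet, and on the control diet the groups overlapped. The log2 fold change over both diets was -1.07 (SE 0.24, adjusted p = 0.121, edgeR quasi-likelihood test, Benjamini-Hochberg), and Ptgs2 passed with DESeq2 (adjusted p = 0.00134, Benjamini-Hochberg), while its adjusted p under the other settings reached 0.548.

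**Figure D5:**
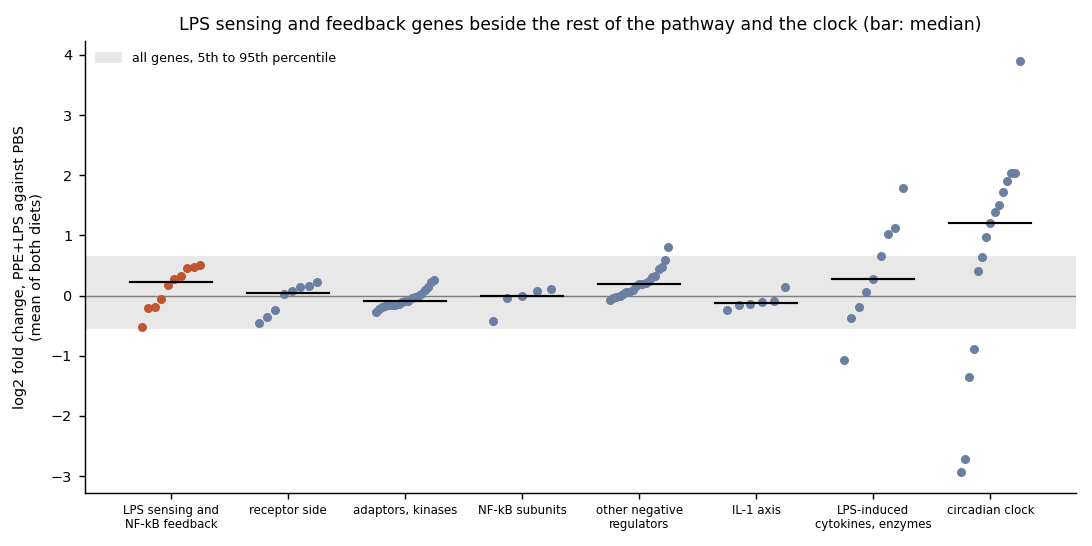
Log2 fold change of the COPD mice model against control mice over both diets (y axis) for each tested gene of 8 lists (x axis), with bars for the median and a grey band from the 5th to the 95th percentile of all genes. The 10 LPS sensing and feedback genes lie within the band, while the clock gene Dbp reaches 3.89 and Arntl -2.93.

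By the correlation of log2 CPM over the 8 libraries, among 18033 genes, the genes most like Tnfaip3 were Rere (Pearson r = 0.976) and Clip4 (0.971). Nfkbia was nearest to Hs2st1 (0.981) and Ddit4 (0.977), and Cd14 to Rsph1 (0.978) and Ifitm1 (0.973). Tlr4 was nearest to Ftx (0.993) and Kansl1l (0.992), Lbp to Fbxl6 (0.995) and Castor1 (0.993), and Tlr2 to Ddhd1 (0.982) and 4930578C19Rik (0.981). Myd88 was nearest to Msrb2 (0.982) and Med8 (0.977), and Irak3 to Xdh (0.972) and Rgs2 (0.961). Ly96 was nearest to Gm26799 (0.957) and Pde12 (0.950), and Il1rn to Rasgrp4 (0.970) and Gm11501 (0.969). None of the 10 was among the 2 nearest genes of another. The points share their library with its depth and GC content, and the nearest of so many genes over 8 points is close by construction, so the values are descriptions.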

How the data were processed

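The authors deposited whole-number read counts for each of 52636 Ensembl genes and 8 lung libraries, without normalization. The study names CLC Genomics Workbench and edgeR, and the submitters' processing notes name HISAT2, edgeR and the mouse build mm10 (GRCm38). The counting program, annotation and strand setting are not given in the sources used here. Names and coordinates came from GENCODE M21, which held 52489 of the identifiers.

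The analysis used edgeR 4.0.16 (R 4.3.3). The filterByExpr filter (minimum count 10, minimum total 15) left 20546 genes, which were scaled by TMM and fitted as 4 group means over 8 libraries with 4 residual degrees of freedom. Each comparison used the edgeR quasi-likelihood test, with p-values adjusted over every gene kept by the Benjamini-Hochberg method. DEGs had an adjusted p under 0.05 together with a log2 fold change past 1 in size. The steps were tested on simulated data. CPM was scaled with the TMM factors, and CPM per kb used merged exon length.

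The 10 genes and all lists were chosen with earlier results of these data known. Named by rule were the 10 genes in every comparison and DEGs of the other lists. The rule also took the gene with the lowest p over both diets in each pathway list. It further took the 2 genes most correlated with each of the 10. Other genes, among them Cxcl1, Ccl3, Cxcl2, Nos2 and single markers of the cell type and glucocorticoid lists, were named after their values were seen. Promoters came from RefSeq (GRCm38.p6). In them 8 motif patterns were tried and 2 were kept after their matches were seen. Alternatives were DESeq2 1.42.0, other scalings and filters, other call rules, a replicate block, fewer libraries and a correction for length and GC content (lowess, span 0.5), the last chosen after the data were seen.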

Additional observations from a re-analysis of the deposited data

Results flagged for a closer look

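Cd14 and Nfkbia were each set apart by a single library, replicate 2 of the control-diet COPD model. Within the 4 libraries of the model, the gap from this library to the next, divided by the whole range, was 0.901 for Cd14 and 0.87 for Nfkbia, above Dixon's 95% critical value for 4 libraries. The 10 genes gave 20 such groups of 4, of which chance marks about 1 in 20, and the 2 marked values come from the same library. These groups of 4 join both diets.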

How the results depend on the processing

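Over the 6 comparisons, 0 of the 10 genes were DEGs under every alternative except 1. Without replicate 1 of the control-diet COPD model, 3 genes passed on that diet, Cd14 (log2 fold change 1.21), Nfkbia (1.09) and Il1rn (-1.02), so the count ran from 0 to 3. That fit rests on replicate 2 alone. Of 66 log2 fold changes, those of the 10 genes in 6 comparisons and of 6 pathway genes over both diets, 561 of 568 values from alternatives with all libraries kept direction and call. Ptgs2 passed with DESeq2 (-1.07) and with all genes that had a count (-1.08). The length and GC correction, an alternative added with the data in view, turned Il1rn (0.039) and Myd88 (-0.14) on the TJ-41 diet, Ly96 (-0.025) and Tnfaip3 (-0.092) between diets in control mice, and the diet difference of Tlr4 (0.057). The cause of these turns was not tested.

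The number of DEGs over all genes also depended on the alternatives. With at most 0.443% of all genes called in the main fit, a count among 10 genes could show little of this. With DESeq2 it was 246 over both diets, 172 on the control diet, 121 on the TJ-41 diet, 11 for the diet in control mice, 10 for the diet in the model and 17 for the difference between diets. With all genes that had a count these were 278, 147, 89, 0, 2 and 6. With only the groups compared it was 248 on the TJ-41 diet, 5 for the diet in control mice and 0 for the diet in the model, and with the length and GC correction it was 27 on the TJ-41 diet. Replicate numbers did not pair the libraries, since the replicate differences of the groups correlated at -0.234 to 0.108. With a replicate block the counts were 74, 21, 18, 0, 0 and 0, and 0 of the 10 genes passed.

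Leaving out each library in turn gave 15 to 873 DEGs over both diets, 3 to 1343 on the control diet, 2 to 168 on the TJ-41 diet, 0 to 728 for the diet in the model and 0 to 14 for the difference, with the highest count without replicate 1 of the model on the control diet, except on the TJ-41 diet. Of 528 log2 fold changes so recomputed, 35 turned, in 28 of 66 results, and 4 newly passed. The ranges of the results that turned or passed follow. For the model over both diets, the log2 fold changes ran for Myd88 (-0.18 to 0.049), Ptgs2 (-1.32 to -0.88), Tlr2 (-0.076 to 0.37) and Tlr4 (-0.56 to 0.048). For the model on the control diet, the log2 fold changes ran for Cd14 (0.15 to 1.21), Il1rn (-1.02 to -0.72), Lbp (-0.20 to 0.69), Myd88 (-0.40 to 0.071), Nfkbia (0.18 to 1.09), Tlr2 (-0.30 to 0.59) and Tlr4 (-0.78 to 0.43). For the model on the TJ-41 diet, the log2 fold changes ran for Il1rn (-0.44 to 0.045), Myd88 (-0.11 to 0.17) and Nfkbia (-0.044 to 0.53). For the diet in control mice, the log2 fold changes ran for Irak3 (-0.030 to 0.21), Ly96 (-0.28 to 0.29), Nfkbia (-0.22 to 0.36) and Tnfaip3 (-0.11 to 0.14). For the diet in the model, the log2 fold changes ran for Cd14 (-0.94 to 0.13), Irak3 (-0.28 to 0.20), Lbp (-0.30 to 0.59), Myd88 (-0.28 to 0.20), Nfkbia (-0.77 to 0.14), Tlr2 (-0.20 to 0.69) and Tlr4 (-0.41 to 0.79). For the difference between the diet effects, the log2 fold changes ran for Cd14 (-1.03 to 0.035), Irak3 (-0.37 to 0.11), Myd88 (-0.044 to 0.43), Nfkbia (-0.87 to 0.047), Tlr2 (-0.43 to 0.46), Tlr4 (-0.76 to 0.44) and Tnfaip3 (-0.038 to 0.21). With 2 libraries a group the spread of a single library limits each of these values. The lone library of a group is assumed to vary like the other groups.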
